A study of Mus musculus with 9 samples.

Results

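The 10 genes described here belong to the glutaredoxin and thioredoxin systems and were measured by mRNA sequencing in E14 cells, a wildtype line of mouse embryonic stem cells. They were chosen by name around Glrx, whose level had stood out between the groups of this study in earlier work on the same table. They are Glrx, Glrx2, Glrx3 and Glrx5 (glutaredoxins), Txn1 and Txn2 (thioredoxins), Txnrd1 and Gsr (reductases), Prdx1 (a peroxidase) and Txnip (an inhibitor of thioredoxin). Each symbol had 1 row among the 16636 genes of the table, and all 10 were among the 14246 genes that passed the filter on low counts. The differences of Glrx between the groups chose the set, so they are given as a description with no test. The other 9 genes were tested.

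The study had 3 libraries each, described by the submitters as biological replicates, of untreated cells, of cells transfected against luciferase as a control (siLuc) and of cells transfected against Stag3 (siStag3). All were wildtype E14 cells kept naive on fibronectin by 2i/LIF, that is, by blocking MEK and GSK3 in the presence of LIF. The siRNA cells received 50 pmol at seeding and again on the following day with a lipid reagent, and were collected at 48 hours. Untreated cells are labelled as having had no treatment, so the difference of siLuc from untreated cells holds the reagent and the siRNA together. Library names carry a set number that the labels do not explain. In every group 2 of the libraries belong to Set 1 and the remaining one to Set 3. The names also carry an experiment number. In Set 3 the siLuc library is of experiment 1, while the untreated and siStag3 libraries are of experiment 5. Differences of siLuc from the other groups within Set 3 therefore cannot be told apart from differences between these experiments.

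Glutaredoxins and thioredoxins are small proteins that use cysteine thiols to reduce disulfides in other proteins. Thioredoxin is recharged by thioredoxin reductase with NADPH, while glutaredoxin is recharged by glutathione, which glutathione reductase keeps reduced with NADPH. Glutaredoxins with a single active cysteine, such as Glrx3 and Glrx5, are best known for carrying iron-sulfur clusters. In stem cells as elsewhere, both systems supply electrons to ribonucleotide reductase and to enzymes that remove peroxide.

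Total counts ran from 29332436 to 44527534 per library, and counts of the 10 genes from 752 to 43687. Stag3, the target, averaged 25.7 ± 2.54 CPM (a count scaled by the total of its library and its TMM factor) without treatment, 24.2 ± 2.20 CPM with siLuc and 14.8 ± 1.12 CPM with siStag3 (SD, n = 3). That is a partial knockdown. All 8 markers of naive stem cells were detected, and their summed level was 4545 to 5004 CPM per library. Summed markers were at 1.52 to 2.47 CPM for primitive endoderm (6 genes) and at 1.52 to 2.72 CPM for fibroblasts (4 of 6 genes in the table). Neural markers (4 genes) were at 105 to 122 CPM in untreated cells, 109 to 116 in siLuc and 117 to 138 in siStag3. The 5 trophoblast markers were at 6.33 to 6.68 CPM in untreated cells, 7.003 to 7.81 in siLuc and 4.62 to 6.27 in siStag3. The part of these markers in the differences below was not tested. The libraries separated by set, with 6076 of the 14246 genes differing between the sets, and the set was therefore a term in every main comparison.

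RefSeq promoter windows (build GRCm38.p6, from 250 bases before to 50 bases after a start site) were found for 9 of the 10 genes, all but Gsr. They are shown for Glrx, for Glrx5, the related gene nearest to Glrx in profile, and for Txnip, the gene that passed the threshold in siLuc. Capitals mark matches on either strand to 5 motifs. These are the antioxidant response element bound by NRF2, searched as TGACNNNGC, and the E-box, searched as CACGTG. The NF-Y box was searched as CCAAT, and the GC box, to which Sp1 binds, as GGGCGG. The box that positions the start of transcription in some promoters was searched as TATAAA.
Glrx, chr13:75839635-75839934, plus strand: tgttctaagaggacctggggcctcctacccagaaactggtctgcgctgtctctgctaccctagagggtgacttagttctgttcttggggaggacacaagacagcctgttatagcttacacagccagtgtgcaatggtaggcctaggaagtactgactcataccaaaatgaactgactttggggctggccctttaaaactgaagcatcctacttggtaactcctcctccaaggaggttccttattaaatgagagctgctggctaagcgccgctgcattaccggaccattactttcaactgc
Glrx5, chr12:105032368-105032667, plus strand: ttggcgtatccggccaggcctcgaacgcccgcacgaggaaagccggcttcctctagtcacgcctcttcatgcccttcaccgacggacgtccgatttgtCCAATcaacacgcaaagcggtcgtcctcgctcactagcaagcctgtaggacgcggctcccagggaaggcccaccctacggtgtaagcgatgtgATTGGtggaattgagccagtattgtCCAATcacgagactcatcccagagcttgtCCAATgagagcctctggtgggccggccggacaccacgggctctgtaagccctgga
Txnip, chr3:96557707-96558006, plus strand: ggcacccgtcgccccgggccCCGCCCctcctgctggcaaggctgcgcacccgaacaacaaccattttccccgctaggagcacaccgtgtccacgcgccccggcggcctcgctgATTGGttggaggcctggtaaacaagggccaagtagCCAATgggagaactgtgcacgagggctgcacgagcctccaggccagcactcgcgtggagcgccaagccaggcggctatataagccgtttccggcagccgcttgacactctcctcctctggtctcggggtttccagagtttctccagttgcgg
The Glrx window held none of these letters. The Glrx5 window held 4 NF-Y boxes and that of Txnip held 2 NF-Y boxes and 1 GC box, with no shared bases. Of all 32851 windows in the table, 37.4% held an NF-Y box, 35.7% a GC box, 13.6% the start-positioning box, 12.4% an antioxidant response element and 7.15% an E-box. Some genes have several windows, so these shares of windows are not shares of genes. Among the 9 genes with a window, Glrx included, only Prdx1 and Txnrd1 held the antioxidant response element. In both cases it read on the minus strand, and of the Txnrd1 windows only the one named below held it. Those stretches are shown because these genes are commonly listed as NRF2 targets.
Prdx1, within chr4:116685349-116685648, plus strand: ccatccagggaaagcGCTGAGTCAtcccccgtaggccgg
Txnrd1, within chr10:82858956-82859255, plus strand: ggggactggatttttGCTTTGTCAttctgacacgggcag
A match is a run of letters and not a measured site. Variant forms of the 5 motifs were not searched, so a window without a match may still hold one.

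The values of a group are given with its Set 1 libraries first and its Set 3 library last. Levels of different genes were compared only per kilobase, using the median length of the annotated coding transcripts. Prdx1, an abundant peroxiredoxin that removes peroxide with electrons from thioredoxin, was highest at 1475 ± 111 CPM per kb (SD, n = 9 libraries). Txn1, the cytosolic thioredoxin, followed at 338 ± 39.4 CPM per kb, and Glrx3 at 158 ± 7.53. Txnrd1 (124 ± 7.96 CPM per kb) and Gsr (119 ± 5.42) did not differ beyond their spread, and Txn2, the mitochondrial thioredoxin, was at 76.6 ± 7.31. Glrx2 (34.2 ± 4.03 CPM per kb), Glrx (31.3 ± 5.23) and Txnip (26.8 ± 7.04) also lay within their spread of each other, and Glrx5 was lowest at 14.7 ± 1.60. These SDs pool the groups and sets. In siLuc alone Glrx was at 24.4 ± 1.14 and Glrx2 at 35.2 ± 5.89 CPM per kb (SD, n = 3). With the longest coding transcript as the length, a choice made after seeing the data, Prdx1 and Txn1 stayed first and second, Glrx3 moved from place 3 to place 5 and Glrx2 from place 7 to place 10. Some reads of Glrx3 and Prdx1 may be shared with other genes, since 17.6% and 15.2% of their 31-base words occur in transcripts of other genes, among them predicted genes. Between Txn1 and the pseudogene Txn-ps1 the share was 6.95%, and for Glrx2 and Glrx it was 7.67% and 0.798% with all other genes. Txnrd1 overlaps Eid3 on the same strand, and Txnip overlaps the antisense gene Gm15441. Of the 31-base words of Txnrd1, 0.0% occur in transcripts of other genes. The strand setting of the counting was not given, so reads of Txnip and Gm15441 may not have been told apart. The effect of these overlaps was not tested.

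**Figure D1:**
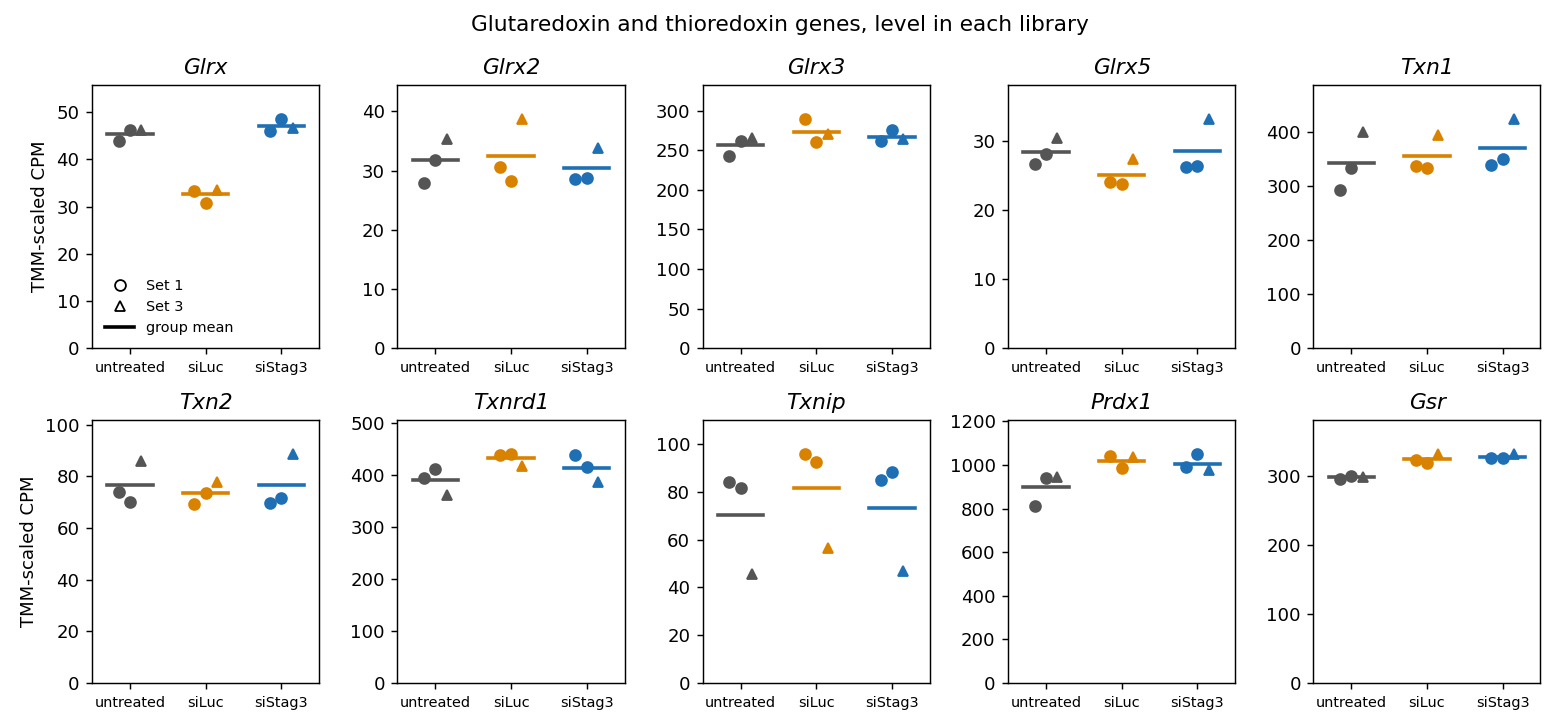
Level of each of the 10 genes in TMM-scaled CPM (vertical axis, from 0) in the 3 groups; each point is 1 library, circles are Set 1, triangles are Set 3 and lines are group means. Glrx is lower in the 3 siLuc libraries (30.8 to 33.6 CPM) than in all others (43.8 to 48.5 CPM), while Txnip is lower in the 3 Set 3 libraries.

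Glrx, the cytosolic glutaredoxin that removes glutathione from proteins, was lower in siLuc than in the other groups, which overlapped. It was at 43.8, 46.3 and 46.2 CPM in untreated cells, 33.3, 30.8 and 33.6 in siLuc and 46.1, 48.5 and 46.6 in siStag3. No siLuc library overlapped the other groups, and the untreated and siStag3 libraries overlapped each other. All siLuc libraries lay below all others in 1.28% of the 14246 genes tested and above all others in 1.35%. The log2 fold change of siLuc against untreated cells was -0.49 within Set 1 and -0.46 within Set 3, and that of siStag3 against siLuc was 0.56 and 0.47. Over the 17 other settings tried, the fold changes ran from -0.57 to -0.44 and from 0.50 to 0.58. Because both differences contain the siLuc libraries, they are not independent of each other. In bulk RNA, fewer cells with a transcript and less of it per cell cannot be told apart.

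None of the other 3 glutaredoxins passed the test between groups. In siStag3 against siLuc, none of the 9 other genes passed an adjusted p of 0.05 in edgeR's quasi-likelihood test or in DESeq2, against 0.0281% of all genes in edgeR. The unadjusted p was under 0.05 for 2 of the 9, Txnip and Glrx5, and for 7.88% of all genes. The log2 fold changes of the 9 ran from -0.17 to 0.19, with standard errors (SE) of 0.0490 to 0.0726. Their median was -0.02 (4 of 9 above 0), beside -0.00479 for all genes, of which 48.3% were above 0. The sign of this small median was not stable. It was 0.03 (6 of 9 above 0) with a correction for the GC content of the genes, 0.02 (6 of 9) without the siLuc library of Set 1, experiment 1, and 0.01 (5 of 9) without the siStag3 library of Set 3, and it reached -0.05 without that of Set 1, experiment 3.

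Glrx5 is the mitochondrial glutaredoxin that hands on iron-sulfur clusters. It was the one gene of the 9 whose fitted differences and values within each set took the signs of those of Glrx in both comparisons. Its levels were 26.7, 28.0 and 30.4 CPM in untreated cells, 23.9, 23.7 and 27.3 in siLuc and 26.1, 26.3 and 33.1 in siStag3. In each set the siLuc value was the lowest, but the groups overlapped because the Set 3 library was the highest of each group. On the log2 scale Glrx5 differed by -0.18 (SE 0.0667, edgeR adjusted p 0.105) in siLuc against untreated cells and 0.19 (SE 0.0671, edgeR adjusted p 0.510) in siStag3 against siLuc. Over the 17 other settings the first ran from -0.24 to -0.08, smallest in size with the GC correction, and the second from 0.13 to 0.21.

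Glrx2, a mitochondrial and nuclear glutaredoxin, was at 28.0, 31.9 and 35.3 CPM in untreated cells, 30.6, 28.3 and 38.7 in siLuc and 28.6, 28.7 and 33.9 in siStag3. The siLuc libraries overlapped both other groups, and the Set 3 library was the highest of each group. Glrx3, a glutaredoxin-domain protein of the cytosolic iron-sulfur pathway, was at 242, 261 and 265 CPM in untreated cells, 289, 261 and 271 in siLuc and 262, 276 and 264 in siStag3, and the groups overlapped again. In siLuc against untreated cells the log2 fold change was 0.03 (SE 0.0720) for Glrx2 and 0.10 (SE 0.0594) for Glrx3, with the sign opposite to that of Glrx. The edgeR adjusted p was 0.816 and 0.307. In siStag3 against siLuc Glrx2 differed by -0.09 (SE 0.0726) and Glrx3 by -0.03 (SE 0.0594), again with signs opposite to that of Glrx, and the edgeR adjusted p was 0.764 and 0.889.

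**Figure D2:**
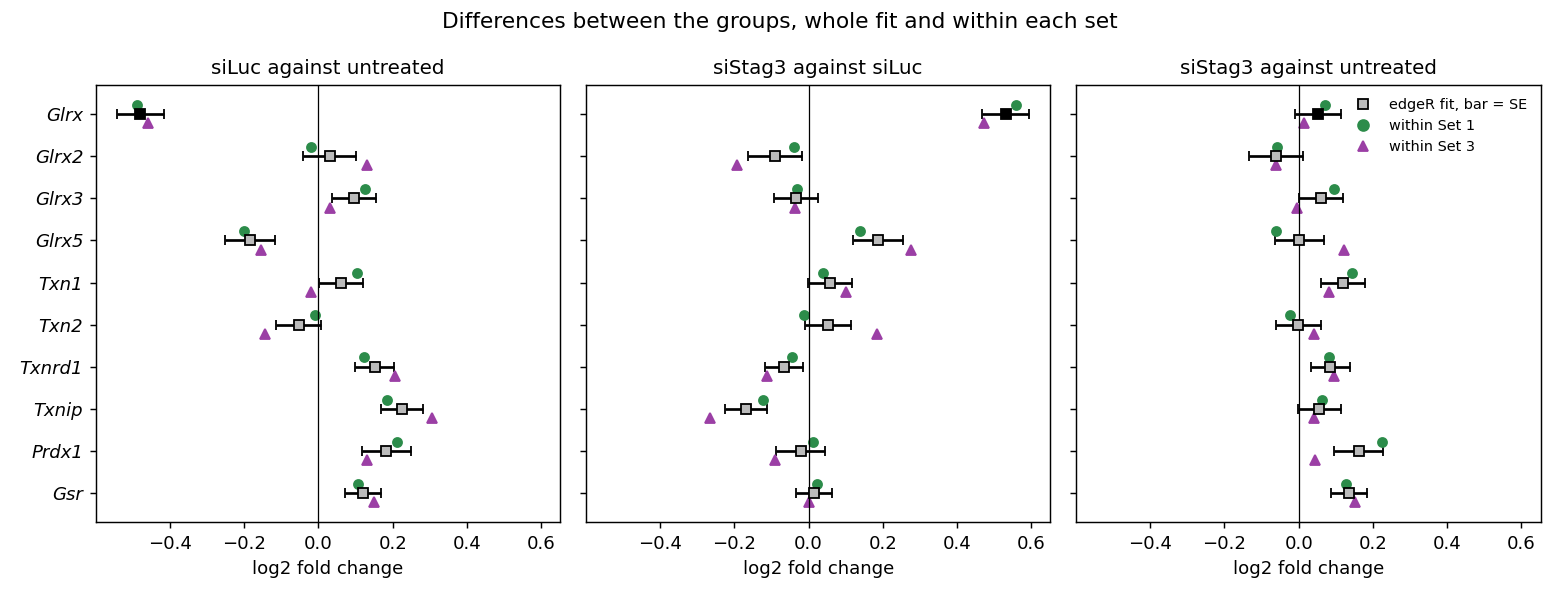
Log2 fold change (horizontal axis) of the 10 genes in the 3 comparisons; squares are the edgeR fit with the set as a term, bars its standard error, circles the difference within Set 1 and triangles that within Set 3, where each group has 1 library. Glrx lies at -0.48 in siLuc against untreated and at 0.53 in siStag3 against siLuc, while the other 9 genes lie between -0.18 and 0.22.

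Neither thioredoxin passed the test in any of the 3 comparisons of groups. Txn1 was at 292, 333 and 400 CPM in untreated cells, 337, 333 and 394 in siLuc and 339, 349 and 423 in siStag3. Txn2 was at 73.8, 69.9 and 86.1 CPM, 69.3, 73.4 and 78.0 CPM and 69.6, 71.7 and 88.6 CPM in the same order. In both genes the groups overlapped and the Set 3 library was the highest of its group. For siLuc against untreated cells the log2 fold change was 0.06 (SE 0.0593) in Txn1 and -0.05 (SE 0.0607) in Txn2, with edgeR adjusted p of 0.529 and 0.595. Against siLuc, siStag3 differed by 0.06 (SE 0.0593) and 0.05 (SE 0.0609), with edgeR adjusted p of 0.809 and 0.836.

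Against untreated cells, 1 of the 9 genes, Txnip, was called in siLuc (edgeR and DESeq2), beside 4.20% of all genes in edgeR (1.65% higher, 2.55% lower). The unadjusted p was under 0.05 for 5 of the 9 (Txnip, Txnrd1, Prdx1, Glrx5 and Gsr), and for 27.8% of all genes. Their median log2 fold change was 0.10 (7 of 9 above 0), beside -0.00242 for all genes, of which 49.6% were above 0. This median fell to 0.00786 (7 of 9 above 0) with a correction for the GC content of the genes, to 0.06 without the untreated library of Set 1, experiment 1, and to 0.05 without the siLuc library of Set 1, experiment 1. Txnip binds reduced thioredoxin and limits glucose uptake, and its transcription follows glucose. It was at 84.1, 81.8 and 45.7 CPM in untreated cells, 95.9, 92.6 and 56.5 in siLuc and 85.1, 88.2 and 47.0 in siStag3. Within each set every siLuc library was above the untreated ones, although over both sets the groups overlapped. The rise was 0.22 on the log2 scale (SE 0.0569, edgeR adjusted p 0.0435), with 0.18 within Set 1 and 0.31 within Set 3. Its sign was opposite to that of Glrx, also in siStag3 against siLuc, where the difference was -0.17 (SE 0.0571, edgeR adjusted p 0.470). The call of Txnip was lost without the set term (edgeR adjusted p 0.796), with total count only (0.0782), in Set 1 alone (0.104), and when any of the 3 untreated libraries, the 3 siLuc libraries or the siStag3 library of Set 1, experiment 1, was left out (edgeR adjusted p 0.0574 to 0.177).

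The NADPH-fed reductases and Prdx1 were at higher levels in siLuc than in untreated cells, with no overlap between these groups, but below the threshold of the test. Gsr, glutathione reductase, was at 296, 300.3 and 299 CPM in untreated cells, 323, 319 and 331 in siLuc and 326, 325 and 332 in siStag3. Its libraries were at or below 300.3 CPM in untreated cells and above 318 CPM in both transfected groups. Txnrd1, cytosolic thioredoxin reductase, was at 394, 411 and 362 CPM in untreated cells, 438, 440 and 418 in siLuc and 437, 415 and 386 in siStag3. The siStag3 libraries of Txnrd1 overlapped both other groups. Prdx1 was at 810, 940 and 947 CPM in untreated cells, 1039, 984 and 1037 in siLuc and 990, 1050 and 975 in siStag3. Again the untreated libraries lay below both transfected groups.

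Such separation upward from untreated cells was seen in 3 of the 9 genes in siLuc and in 2 of the 9, Gsr and Prdx1, in siStag3. Over all genes it was seen in 9.59% and 4.63%. For siLuc, Gsr differed by 0.12 (SE 0.0490), Txnrd1 by 0.15 (SE 0.0518) and Prdx1 by 0.18 (SE 0.0656) on the log2 scale, with edgeR adjusted p of 0.134, 0.0923 and 0.104. In siStag3 against untreated cells none of the 9 genes passed in edgeR or DESeq2, beside 2.53% of all genes in edgeR. There the unadjusted p was under 0.05 for 2 of the 9 and for 17.0% of all genes, and the values were 0.14 (SE 0.0490, edgeR adjusted p 0.171) for Gsr and 0.16 (SE 0.0656, adjusted p 0.231) for Prdx1. These comparisons share the untreated libraries. Against siLuc, siStag3 was at 0.02 for Gsr, -0.02 for Prdx1 and -0.07 for Txnrd1 on the log2 scale, with edgeR adjusted p of 0.940, 0.936 and 0.760. When the GC correction was added, the siLuc difference fell to 0.03 for Prdx1 (GC content 42.9%), 0.00786 for Glrx3 and 0.00389 for Txn1. It became -0.08 for Glrx5, -0.10 for Glrx2 and 0.00258 for Txn2, and stayed at 0.11 for Gsr, 0.14 for Txnrd1 and 0.20 for Txnip.

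More of these genes passed between the sets than between the groups. Of the 9, 6 passed in edgeR, 4 higher and 2 lower in Set 3, beside 42.7% of all genes (21.4% higher, 21.2% lower). Txnip was lower in Set 3 in every group, at 45.7 to 56.5 CPM against 81.8 to 95.9 CPM in Set 1. It fell by 0.83 on the log2 scale (SE 0.0513, edgeR adjusted p 2.46e-07), with place 15 among the 14246 genes by p-value. Txn1 (0.30, SE 0.0508, edgeR adjusted p 0.000516), Glrx2 (0.29, SE 0.0618, adjusted p 0.00221), Txn2 (0.24, SE 0.0521, adjusted p 0.00259) and Glrx5 (0.23, SE 0.0572, adjusted p 0.00615) were higher in Set 3. Txnrd1 was lower by a smaller amount (-0.12, SE 0.0450, edgeR adjusted p 0.0416), a call kept only without the untreated library of Set 1, experiment 1, or the siLuc library of Set 3 among the 9 fits that left out 1 library. It was also lost with total count only (edgeR adjusted p 0.213) and with no filter (0.0626). The call of Glrx5 was lost with the GC correction (0.10, edgeR adjusted p 0.115). Glrx itself differed by 0.03 between the sets (SE 0.0542, edgeR adjusted p 0.722), and Glrx3, Prdx1 and Gsr by 0.00935 to 0.03. With the GC correction Glrx (0.14, edgeR adjusted p 0.0173), Glrx3 (0.12, adjusted p 0.0286) and Prdx1 (0.22, adjusted p 0.000576) passed as well.

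**Figure D3:**
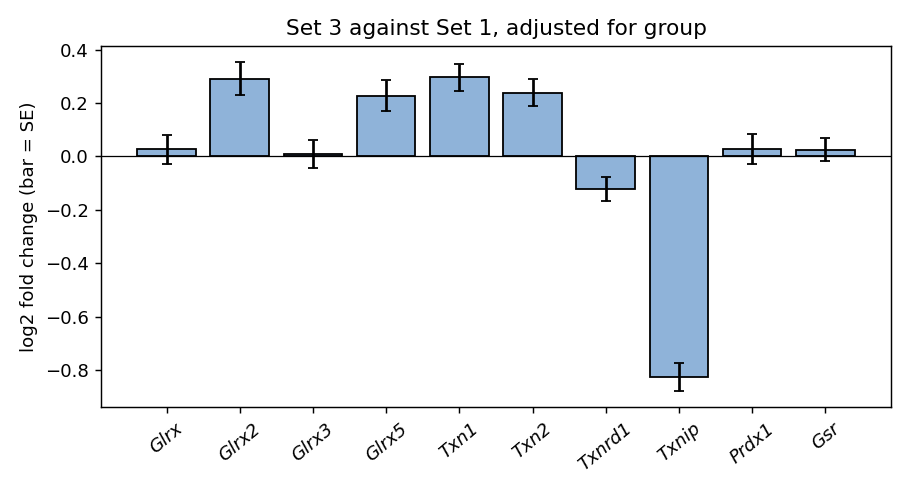
Log2 fold change of Set 3 against Set 1 (vertical axis) for the 10 genes from the edgeR fit with a mean per group; error bars are standard errors. Txnip stands at -0.83, and Glrx2, Glrx5, Txn1 and Txn2 stand between 0.23 and 0.30.

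The profile of Glrx over the 9 libraries was compared with that of 9059 other genes whose mean log2 CPM was 3 or more. Each profile was centred on its mean within each set, and likeness was the root mean square (RMS) difference in log2 CPM. A flat profile would differ from Glrx by 0.242, and 3378 genes were nearer than that. Tmem50a, a membrane protein gene, was nearest (RMS difference 0.0491), followed by Ndufaf7, an assembly factor of respiratory complex I (0.0685), Accsl (0.108), Gm20605 (0.123) and Eef1akmt4 (0.129). Tmem50a was at 35.5, 36.2 and 40.4 CPM in untreated cells, 28.6, 24.9 and 28.3 in siLuc and 36.4, 37.2 and 42.4 in siStag3, with every siLuc library below the others. Ndufaf7 was at 21.1, 20.1 and 22.1 CPM in untreated cells, 15.8, 14.7 and 15.5 in siLuc and 19.7, 20.7 and 20.7 in siStag3, and its siLuc libraries lay below all others. Accsl was at 60.9, 62.0 and 62.1 CPM, 44.8, 46.6 and 46.4 CPM and 57.0, 56.0 and 57.8 CPM in the same order, with siLuc again below all others. These genes were chosen by their likeness, so their values are a description.

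Of the 9 related redox genes, Glrx5 was nearest to Glrx, at place 65 of 9059 (RMS difference 0.163). Txn2 was at place 2336 (0.229), slightly nearer than a flat profile. The other 7 were farther from Glrx than a flat profile, from Txn1 at place 3627 (0.245) to Txnip at place 8125 (0.333).

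**Figure D4:**
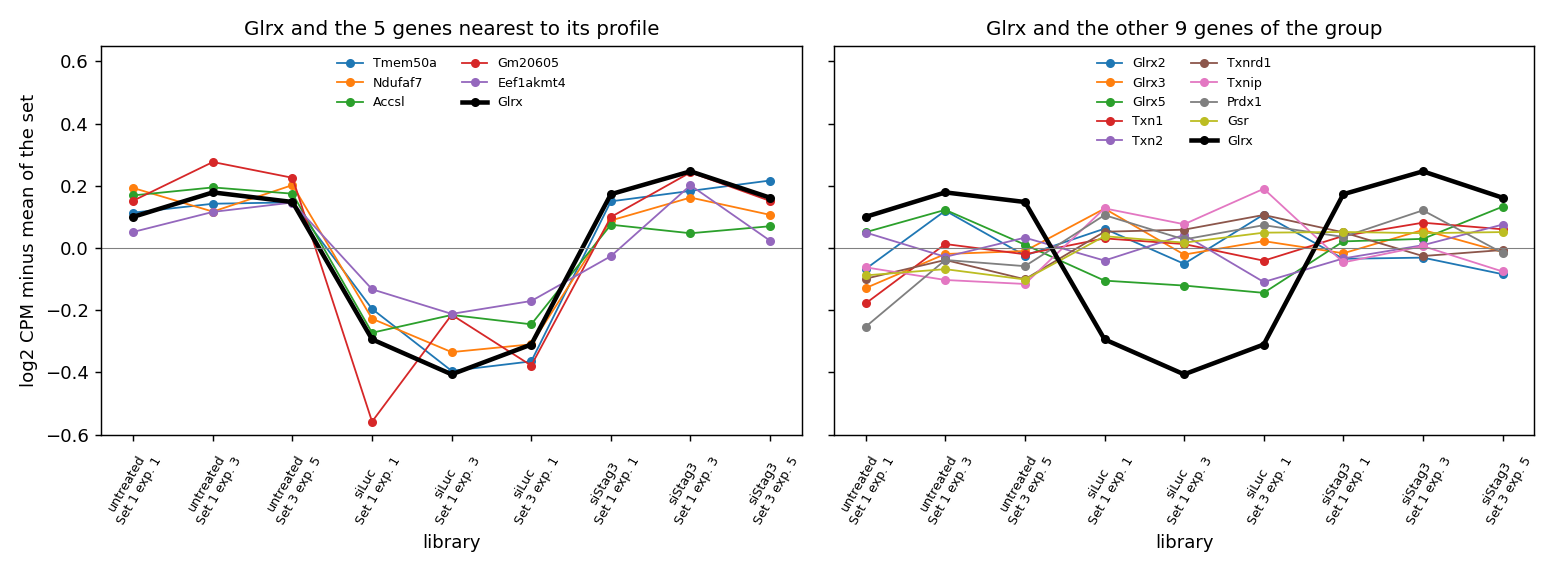
Log2 CPM minus the mean of the set (vertical axis) in each of the 9 libraries (horizontal axis) for Glrx (thick black line) with the 5 genes nearest to it (left) and with the other 9 genes (right); lines join libraries of the same gene only to guide the eye. The 5 nearest genes dip in siLuc with Glrx, and of the related redox genes Glrx5 shows the deepest dip there.

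The wider pathway was read from 7 lists holding 102 distinct genes that were tested. In siStag3 against siLuc none of them passed in edgeR, 9 had an unadjusted p under 0.05 (7.88% of all genes did), and DESeq2 called 1, Ftl1. The edgeR fit with the GC correction called Ftl1 as well (0.42, adjusted p 0.0190). Here and below, genes that only DESeq2 or another setting called are named after their values were seen. In siLuc against untreated cells 5 passed in edgeR (2 higher, 3 lower). That is 4.90% of the lists, beside 4.20% of all genes, and DESeq2 called 8. Without the set term in the model, none of the 5 passed (edgeR adjusted p 0.322 to 0.580). With a block of set and experiment, added after seeing the data, none of the 5 passed either (edgeR adjusted p 0.0763 to 0.275). In siStag3 against untreated cells 3 passed (1 higher, 2 lower), and DESeq2 called 3. That is 2.94% of the lists, beside 2.53% of all genes (1.07% higher, 1.46% lower). Without the set term none of these passed either (edgeR adjusted p 0.286 to 0.716). With the block of set and experiment these 3 passed (edgeR adjusted p 0.00481 to 0.0464).

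Glutathione synthesis and transfer (18 genes tested) had 1 gene higher and 1 lower in siLuc, beside 1.65% and 2.55% of all genes. There 7 of the 18 had an unadjusted p under 0.05, beside 27.8% of all genes. Their median was 0.05 (10 of 18 above 0, beside 49.6% of all genes). It ran from -0.01 to 0.08 when 1 library was left out. Without the siStag3 library of Set 3, edgeR also called Gstp1 lower (-0.20, adjusted p 0.0276). In siStag3 against untreated cells 1 gene was higher and 1 lower, beside 1.07% and 1.46% of all genes. Gclm, the modifier subunit of the enzyme that starts glutathione synthesis, rose from 79.7, 85.8 and 75.7 CPM in untreated cells to 102, 101 and 109 in siLuc and stood at 109, 107 and 97.4 in siStag3. All transfected libraries lay above all untreated ones. The log2 fold change was 0.37 in siLuc (SE 0.0636, edgeR adjusted p 0.00699) and 0.38 in siStag3 (SE 0.0636, adjusted p 0.00638) against untreated cells. Gsto1, an omega-class glutathione transferase with a glutaredoxin-like fold, fell from 19.9, 20.3 and 18.6 CPM to 14.7, 15.6 and 13.3 in siLuc and was at 14.2, 15.03 and 15.6 in siStag3. Its siLuc and siStag3 libraries all lay below the untreated ones. The fall was -0.43 (SE 0.0792, edgeR adjusted p 0.0114) in siLuc and -0.39 (SE 0.0792, adjusted p 0.0176) in siStag3. In siLuc the calls were lost without the untreated library of Set 3 (edgeR adjusted p 0.0722 for Gclm and 0.0632 for Gsto1), and that of Gsto1 also without either siLuc library of experiment 1 (0.0599 and 0.0737). In siStag3 the call of Gclm was lost without the untreated library of Set 3 or the siStag3 library of Set 1, experiment 1 (edgeR adjusted p 0.0767 and 0.0663). That of Gsto1 was lost without any of the untreated libraries or either siStag3 library of Set 1 (0.0575 to 0.150).

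The NRF2 list (19 genes), which holds antioxidant genes driven by that factor, had Gclm higher and Ftl1 lower in siLuc. Over all genes, 1.65% were called higher and 2.55% lower there. DESeq2 also called Nqo1 higher (0.17, adjusted p 0.0499), as did edgeR without the siStag3 library of Set 3 (adjusted p 0.0324). With the GC correction, edgeR also called Srxn1, which is on this list too, higher (0.37, adjusted p 0.00105). Ftl1, the ferritin light chain that stores iron and has many near-copies in the genome, had 88.3, 69.6 and 99.5 CPM in untreated cells, 52.7, 57.2 and 61.9 in siLuc and 65.7, 71.3 and 109 in siStag3. Its siLuc libraries were below all others, as in Glrx. Ftl1 fell by 0.57 on the log2 scale in siLuc (SE 0.112, edgeR adjusted p 0.0237). The call was lost when the untreated library of Set 1, experiment 1, that of Set 3, or either siLuc library of experiment 1 was left out (adjusted p 0.0684 to 0.101). The median of the list was 0.01 in siLuc against untreated cells (10 of 19 above 0, beside 49.6% of all genes). It ran from -0.03 (8 of 19, without the untreated library of Set 1, experiment 3) to 0.05 (12 of 19, without the siLuc library of Set 3) when 1 library was left out, so its sign was not stable. In siStag3 against siLuc the median was 0.06 (13 of 19 above 0, beside 48.3% of all genes). It was 0.01 (14 of 19) without the siLuc library of Set 3, and 0.03 without either the siStag3 library of Set 1, experiment 1, or that of Set 3. In siStag3 against untreated cells Gclm was called higher, beside 1.07% of all genes. The median there was 0.08 (13 of 19 above 0, beside 48.6% of all genes), and 0.04 to 0.11 when 1 library was left out. With the GC correction, edgeR also called Srxn1 (0.28, adjusted p 0.00831) and Me1 (0.19, adjusted p 0.0248) there.

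Iron-sulfur cluster assembly (18 genes), the pathway of Glrx5 and Glrx3, had no gene past the threshold in any of the 3 comparisons in edgeR with the set as a term. In siLuc against untreated cells 16 of 18 were below 0 (median -0.12), 3 had an unadjusted p under 0.05 and DESeq2 called 1, Ndor1. Over all genes, 49.6% were above 0 there and 27.8% had an unadjusted p under 0.05. In edgeR, Hscb passed with the GC correction (-0.35, adjusted p 0.0305), and Bola2, Ndor1 and Nubp2 without the siStag3 library of Set 3 (adjusted p 0.0207, 0.0198 and 0.0423). In siStag3 against siLuc all 18 were above 0 (median 0.06), 1 had an unadjusted p under 0.05 and DESeq2 called 0. Of all genes, 48.3% were above 0 there and 7.88% had an unadjusted p under 0.05. In siStag3 against untreated cells 7 of 18 were above 0 (median -0.03), 1 had an unadjusted p under 0.05 and DESeq2 called 0. The shares of all genes there were 48.6% and 17.0%. In siStag3 against siLuc 12 of 18 were above 0 with a median of 0.00610 when the siLuc library of Set 3 was left out (-0.06 in siLuc against untreated cells), and 11 of 18 with 0.01 in Set 1 alone. The 2 comparisons share the siLuc libraries, and the median GC content of the list was 54.6%, beside 50.6% for all genes tested. With the GC correction the medians were -0.05 (14 of 18 below 0) and 0.05 (16 of 18 above 0).

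Other thioredoxin-fold and reductase genes (21 tested) had 1 gene higher in siLuc, beside 1.65% of all genes. There 4 of the 21 had an unadjusted p under 0.05, beside 27.8% of all genes. The median was 0.02 (15 of 21 above 0, beside 49.6% of all genes). When 1 library was left out, 11 to 15 of the 21 were above 0. In siStag3 against untreated cells none passed, with a median of 0.06 (18 of 21 above 0, beside 48.6% of all genes). Tmx4, a membrane-bound thioredoxin-like protein, was at 6.11, 6.59 and 4.98 CPM in untreated cells, 8.72, 8.22 and 7.53 in siLuc and 8.20, 8.41 and 5.18 in siStag3. The siLuc libraries lay above the untreated ones, and the siStag3 libraries overlapped both. The rise was 0.47 (SE 0.114, edgeR adjusted p 0.0352), a call lost without any untreated library, either siLuc library of experiment 1 or the siStag3 library of Set 1, experiment 1 (edgeR adjusted p 0.0586 to 0.204), and in Set 1 alone (0.0759). The value was 0.32 with the GC correction (adjusted p 0.0477). DESeq2 also called Txnl1 higher in siLuc against untreated cells (0.25, adjusted p 0.0497). Without the siStag3 library of Set 3, edgeR called Txnl1, Txndc9 and Tmx1 higher as well (adjusted p 0.0367, 0.0295 and 0.0350). The 13 peroxiredoxin and peroxide-removal genes and the 10 client enzymes had none past the threshold in edgeR with the set as a term or in DESeq2 in any of the 3 comparisons. With the GC correction, edgeR called Srxn1 (0.37, adjusted p 0.00105) and Sod2 (0.19, adjusted p 0.0460) in siLuc against untreated cells. In siStag3 against untreated cells it called Srxn1 (0.28, adjusted p 0.00831), Cat (0.16, adjusted p 0.0248) and Gpx8 (-0.66, adjusted p 0.0223) among the peroxide-removal genes and Map3k5 (-0.30, adjusted p 0.0197) among the client enzymes. Srxn1, which reactivates oxidized peroxiredoxins, also passed in siLuc without the siStag3 library of Set 3 (0.19, edgeR adjusted p 0.0250). Map3k5, a kinase held by reduced thioredoxin, also passed in siStag3 with total count only (-0.36, edgeR adjusted p 0.0368) and without the siLuc library of Set 3 (-0.31, adjusted p 0.0486). In siLuc against untreated cells 2 of the 13 and 1 of the 10 had an unadjusted p under 0.05, beside 27.8% of all genes. In siStag3 the counts were 1 and 1 against siLuc (7.88% of all genes), and 4 and 1 against untreated cells (17.0% of all genes). The median of the 13 in siLuc was -0.10 (5 of 13 above 0, beside 49.6% of all genes) and turned to 0.03 (9 of 13) with the GC correction. It was -0.03 without the untreated library of Set 3, -0.05 without that of Set 1, experiment 1, and -0.04 without the siLuc library of Set 3.

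Among the 7 glucose-sensing and arrestin-domain genes related to Txnip, 1 was called in siLuc, Mlxipl. It was lower, beside 2.55% of all genes called lower. The unadjusted p was under 0.05 for 4 of the 7, beside 27.8% of all genes. The median log2 fold change of the 7 was -0.08 (3 of 7 above 0), beside -0.00242 for all genes, of which 49.6% were above 0. With the GC correction, edgeR called Arrdc4 higher in siLuc (0.25, adjusted p 0.0106). Without the siStag3 library of Set 3 it called Arrdc4 (0.23, adjusted p 0.0228) and Arrdc3 (0.19, adjusted p 0.0424) higher. In that fit Arrdc2 was called lower (-0.37, adjusted p 0.0374). Mlxipl encodes ChREBP, a glucose-responsive factor that acts on Txnip. Its levels were 12.1, 9.34 and 7.71 CPM in untreated cells, 6.56, 8.47 and 5.48 in siLuc and 6.69, 7.15 and 5.54 in siStag3. The siLuc and untreated libraries overlapped across sets but not within a set. The fall was -0.51 (SE 0.124, edgeR adjusted p 0.0391) in siLuc and -0.59 (SE 0.125, adjusted p 0.0239) in siStag3 against untreated cells. In siLuc the call was lost without the untreated library of Set 1, experiment 1, that of Set 3, either siLuc library of experiment 1 or the siStag3 library of Set 1, experiment 1 (edgeR adjusted p 0.0641 to 0.171), and in Set 1 alone (0.100). In siStag3 it was lost without the same 2 untreated libraries or either siStag3 library of Set 1 (0.0713 to 0.162). In siLuc the value was -0.36 with the GC correction (edgeR adjusted p 0.0536).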

How the data were processed

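The authors deposited a table of estimated counts per gene, held as whole numbers, with an Ensembl gene ID and symbol, for 9 libraries. FastQC, Salmon, DESeq2 and the build GRCm39 are named in the submitters' processing notes, with no role or version. The annotation release and strand setting are not given in the sources used here. The smallest sum of a row was 9 counts, so the table holds no gene below that.

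Column names gave the group, the set and the experiment. All 9 libraries entered 1 edgeR 4.0.16 fit (R 4.3.3; filterByExpr, TMM, robust glmQLFit, glmQLFTest) with a mean per group and the set as a covariate. P-values are two-sided and Benjamini-Hochberg adjusted over 14246 genes, with a threshold of 0.05. SE is the absolute log2 fold change divided by the square root of F. Within-set differences are of mean log2 CPM (prior count 2). The biological coefficient of variation was 7.62%. The fit was also run on counts simulated from its own estimates, which cannot show whether the model suits these libraries.

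GC content, lengths and 31-base words came from GENCODE M21 transcripts (16604 of 16636 IDs matched). That release is on GRCm38, so only names, lengths and sequence are used from it.

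The genes and lists were chosen with earlier results of these data known. The 10 genes, Stag3, the 5 genes nearest to Glrx and up to 3 called genes per list are named. The alternatives were no set term, the DESeq2 1.42.0 Wald test, DESeq2 size factors, total count only, no filter, Set 1 alone, a GC correction (20 bins) and leaving out each library. A block of set and experiment was added after seeing the data.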

Additional observations from a re-analysis of the deposited data

How the results depend on the processing

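Among the 9 genes other than Glrx, the count past the threshold in siLuc against untreated cells was 1 (Txnip). It was 0 without the set term, 0 with total count only and 0 in Set 1 alone, and 0 to 4 when 1 library was left out. The 4 came without the siStag3 library of Set 3, where Glrx5, Txnrd1 and Prdx1 passed beside Txnip (edgeR adjusted p 0.0477, 0.0493 and 0.0496). The count was 0 in siStag3 against siLuc and in siStag3 against untreated cells under every alternative run. For Set 3 against Set 1 it was 6, and 5 to 7 under the alternatives.

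Over all genes, siStag3 against siLuc gave 4 calls, 0 without the set term, 22 with DESeq2, 51 with the GC correction and 0 to 4 when 1 library was left out. For siLuc against untreated cells the count was 598, and 1, 1328, 945 and 111 to 2458 in the same order, with 298 in Set 1 alone. It was 361 for siStag3 against untreated cells, and 2, 415, 890 and 78 to 1591, with 949 in Set 1 alone. In total-count scaling 21.2% of the calls in siLuc and 28.1% of those in siStag3 against untreated cells were higher, beside 39.3% and 42.4% with TMM. The cause of these changes was not tested.

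The replicate numbers in the titles could not be tied to columns, so no block was made from them. A replicate block of set and experiment, which the column names do hold, was added after seeing the data (4 blocks, 3 residual degrees of freedom; the siLuc library of Set 3 is alone in its block). With this block the count among the 9 genes in siLuc against untreated cells was 0, and it was 0 in the other comparisons of groups. Over all genes the block gave 2, 86 and 352 calls in siStag3 against siLuc, siLuc against untreated and siStag3 against untreated cells. Whether the experiment number pairs the libraries was checked within Set 1 only. The difference of experiment 1 from experiment 3 was correlated between groups across 9060 genes, which are not independent replicates. The correlation was 0.321 between untreated and siStag3 cells, -0.369 between untreated and siLuc and -0.204 between siLuc and siStag3. Each group gave 1 such difference, and Set 3 has 1 library per group, so the check cannot decide this. Each of the 10 genes had at least 752 counts per library, and the SE of the 9 ran from 0.0490 to 0.0726 on the log2 scale in siStag3 against siLuc.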
